A study of Nematostella vectensis with 123 samples.

Results

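In the starlet sea anemone, Nematostella vectensis, single embryos at 24–30 h were compared with single embryos at 18–24 h after the 4-cell stage. Members were chosen by label time alone. The 9 embryos at 24–30 h (embryos 37 to 45) carry label times of 1440 to 1760, and the 8 embryos at 18–24 h (embryos 29 to 36) carry 1120 to 1400, so 17 of the 123 embryos of the series enter. The labels give no unit, and the times were read as minutes because the protocol spaces its collections in minutes. Successive embryos are 40 min apart, and each time point holds 1 embryo. All were unmanipulated fertilized embryos, taken out of their jelly with cysteine, kept singly in dilute sea water at 1 temperature and frozen one by one. The labels name no strain, clutch, collection day or stage for an embryo. Polyadenylated RNA of each whole embryo was counted at its 3′ ends by CEL-Seq, which adds a barcode to each embryo's RNA before linear amplification, and DSN treatment, which digests double-stranded DNA, was used on the library to lower the share of abundant molecules.

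Nematostella is a cnidarian, an outgroup to the bilaterian animals with an outer ectoderm and an inner endoderm. In its gastrulation the animal pole folds inward, and the inner layer and the pharynx form from it. The gastrula then becomes a ciliated swimming larva, the planula. Transcripts are measured here as models named by an identifier, whose next-to-last number, the stem, can be shared by several models. The files and the table of gene names used here pair none of the 40499 models with a gene, so expression is described by model and no role is given to any of them. Because whole embryos were measured, fewer cells of a type and less RNA per cell cannot be told apart.

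Depth differed between embryos more than between windows of age. Gene counts were 394965 to 2646585 per embryo at 24–30 h (median 1124264, n = 9) and 535853 to 1706574 at 18–24 h (median 1472354, n = 8). For a model at 0 counts the limit was 1.13 CPM (counts per 1e+06 gene counts) in the deepest embryo and 7.60 CPM in the shallowest, taken as 3 counts, which covers counting error only. The labels do not tell whether the embryos had different parents, and the p-values therefore rest on the spread among these embryos only. That spread includes any trend of age inside a window.

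Embryos 39, 43 and 45 stood apart from the other 24–30 h embryos. On principal component 1 of log2 CPM, which held 17.2% of the variance, they scored 41.6, 95.5 and 63.6, against -34.7 to -17.5 in the other 6. Embryo 36, the oldest of the 18–24 h embryos, scored 35.0. The 3 embryos were also the shallowest of the 9 and had the fewest gene counts per spike-in count, and the part of depth or RNA content in their position was not tested. Component 2, with 14.1% of the variance, placed the 24–30 h embryos at 8.05 to 43.7 and the 18–24 h embryos at -65.5 to -9.03, with no overlap. Component 1 showed no relation to label time past the test's threshold (Pearson r = 0.27, Spearman rho = -0.13, permutation p = 0.30 and 0.63, adjusted p = 0.61 and 0.63 over both, n = 17). Without the 2 embryos farthest from the median label time r was 0.13, and within 24–30 h and within 18–24 h it was 0.41 and 0.28.

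What set the 3 embryos apart was read from the same values and is given as a description, with no test. In 54 models, each of the other 6 embryos at 24–30 h was at 10 CPM or more and over 4-fold above each of embryos 39, 43 and 45. The summed CPM of the 54 models was 376, 435 and 484 in embryos 39, 43 and 45 and 5010 to 8040 in the other 6. At 18–24 h it was 438 in embryo 36 and 1404 to 3163 in the other 7. Embryos outside both windows held 1360 to 7799 at 30–36 h and 19.4 to 761 at 12–18 h. The 761 was embryo 27 alone, where 16 of the 54 models had a count, and the next highest 12–18 h value was 442, in embryo 28. In summed CPM of these 54 models the 3 embryos, and embryo 36, thus lay in the 12–18 h range. For embryo 45 this rested on embryo 27, and embryos 36 and 43 were just under embryo 28. In models with a count they lay above that range. Of the 54 models 42, 35 and 39 had a count in embryos 39, 43 and 45, and 42 in embryo 36, against 4 to 32 at 12–18 h. These counts of models were not matched for depth. Another 12 models were over 4-fold higher in the 3 embryos than in each of the other 6. Their summed CPM was 1044, 1395 and 3544 in embryos 39, 43 and 45 and 16.7 to 85.2 in the other 6. It was 28.0 to 212 at 18–24 h, with embryo 36 highest, and 53.5 to 1340 at 12–18 h and 78.8 to 4053 at 30–36 h, so embryos 43 and 45 lay above the 12–18 h range in these. In addition, 8 of the 54 models had 0 counts in all 3. Of the 54 models 2 were called changed between the windows, and of the 12 models 1, where 1.02% of all 13590 models tested were called.

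**Figure D1:**
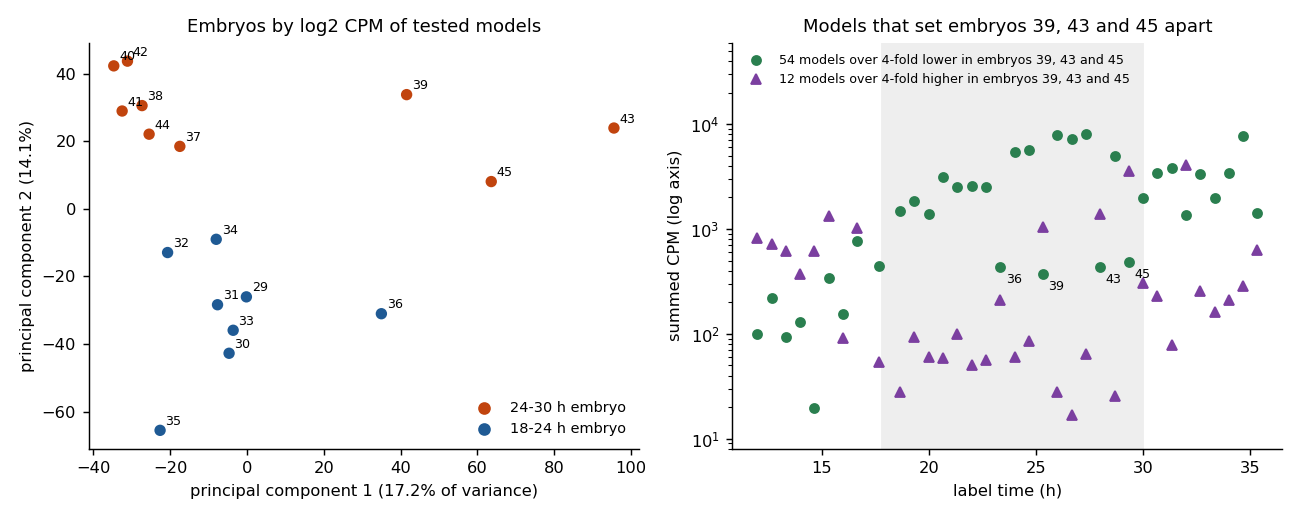
Left, scores of the 17 embryos on the first and second principal component of log2 CPM, with embryo numbers; 24–30 h embryos are orange and 18–24 h embryos blue. Right, summed CPM (log axis) against label time in hours for the 54 models that were over 4-fold lower (circles) and the 12 that were over 4-fold higher (triangles) in embryos 39, 43 and 45, in every embryo from 12 to 36 h; the grey band covers both windows compared. Embryos 36, 39, 43 and 45 lie at 376 to 484 CPM in the 54 models.

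Few models were called changed between 24–30 h and 18–24 h embryos. Of 13590 models tested, 138 were called changed (1.02%), 78 higher (0.574%) and 60 lower (0.442%) at 24–30 h. A model was called at an adjusted p under 0.05 in edgeR's quasi-likelihood test and a change of 1 log2 unit or more in size. In the same test 2365 models had an unadjusted p under 0.05, so models outside the calls are not shown to be unchanged. Over all models tested the log2 fold change had a median of 0.01. The 138 models came from 116 stems. Scaled by spike-in counts, 100 models were higher and 43 lower at 24–30 h, and the median of all models was 0.32, so the split of directions, 56.5% higher here and 69.9% higher there, depends on the scaling. It was 68.6% higher with DESeq2 and 46.3% with voom. By the same test, the 18–24 h embryos differed from 12–18 h embryos in 2368 of 14474 models (16.4%), and the 30–36 h embryos from the 24–30 h embryos in 95 (0.656%), in 1 fit over 4 windows that called 84 models (0.58%) between 24–30 h and 18–24 h. In that fit the higher models were 10.8, 0.332 and 0.428% and the lower models 5.51, 0.249 and 0.228% at the steps into 18–24 h, 24–30 h and 30–36 h. Depth was low in some 12–18 h embryos, and its part in these shares was not tested.

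The number of calls rested on single embryos. Without embryo 32 97 models were called (0.706%), 52 higher (0.379%) and 45 lower (0.328%). The count fell to 79 without embryo 37, 71 without embryo 40, 85 without embryo 41, 67 without embryo 42, 90 without embryo 29, 66 without embryo 30, 67 without embryo 31, 80 without embryo 33 and 80 without embryo 35, and was 224 without embryo 45. Without embryos 39, 43 and 45 together it was 434 (3.02%), 256 higher (1.78%) and 178 lower (1.24%), and 106 of the 138 were among them. That set was chosen after the data were seen. The common biological coefficient of variation, the spread between embryos beyond counting, was 48.0% at 24–30 h and 41.4% at 18–24 h, and 38.3% at 24–30 h without the 3 embryos. Across models, Spearman correlations between 2 embryos had a median of 0.745 over 36 pairs within 24–30 h and 0.833 over 28 pairs within 18–24 h, against 0.760 over 72 pairs between the windows. Among models averaging at least 10 CPM in a window, embryo 45 alone held more CPM than the other 8 together in 59, embryo 43 in 25 and embryo 36, at 18–24 h, in 42; each remaining embryo did in 4 to 13. Of the 138 models 42 were called in each of the 17 fits that left out 1 embryo.

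**Figure D2:**
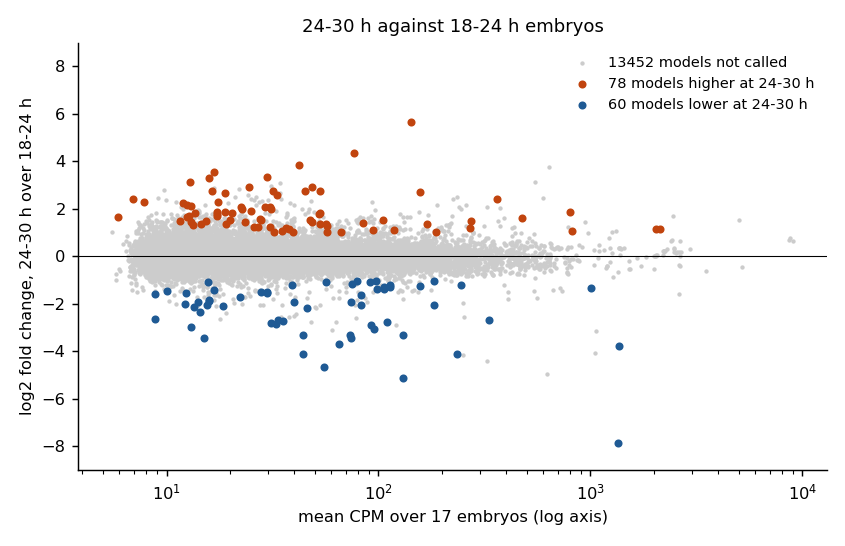
Log2 fold change, 24–30 h over 18–24 h, of each of 13590 models against its mean CPM over the 17 embryos (log axis). Models called higher (78, orange) and lower (60, blue) are marked; grey points are not called. The lowest point, at -7.84, is a model abundant in embryo 32 alone.

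The 78 models that rose had a median log2 fold change of 1.68, from 1.03 to 5.64, and 27 of them rose by at least 2 log2 units. No model of the 78 had 0 counts in all 8 embryos at 18–24 h, a rule that very few reads can meet. At 18–24 h 43 averaged 10 CPM or more and 35 averaged 1 to 10 CPM. For a model at 0 counts the limit was 1.76 to 5.60 CPM in those embryos. The lowest means, such as 1.92 CPM in Nv.T1.4961.2, lay within these limits. The shares of all models tested that met these levels were not counted. At 24–30 h 17 averaged 100 CPM or more. In 9 of the 78 the CPM ranges of the windows did not overlap, against 13 of all models tested (0.0957%) that were higher without overlap. Of the 78, 54 were still called without embryos 39, 43 and 45, where 74 were tested, and 43 without embryo 32.

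Among rising models called in every fit and without overlap, Nv.T1.2339.2 rose most. It had 196 CPM in the lowest, 430 in the median and 1239 in the highest 24–30 h embryo, and 86.9, 101 and 175 CPM in the 18–24 h embryos. Every embryo of the later window lay above every embryo of the earlier one, and embryos 39 and 42 were highest, at 1048 and 1239 CPM. It averaged 582 ± 389 CPM at 24–30 h (SD, n = 9) and 114 ± 30.6 CPM at 18–24 h (SD, n = 8). By edgeR it rose by 2.40 ± 0.37 log2 units (SE, adjusted p = 0.0036). The model had averaged 236 CPM at 12–18 h, above its 18–24 h mean, and it averaged 612 CPM at 30–36 h.

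Nv.T1.21706.1 rose next most, at a low level. It had 19.7 CPM in the lowest, 27.9 in the median and 40.8 in the highest 24–30 h embryo, against 0, 9.43 and 14.3 CPM at 18–24 h. The windows did not overlap, and 1 embryo at 18–24 h had no count of it. It averaged 30.7 ± 7.18 CPM at 24–30 h (SD, n = 9) and 8.67 ± 4.91 CPM at 18–24 h (SD, n = 8), and the rise was 1.83 ± 0.39 log2 units (SE, edgeR adjusted p = 0.025). At 12–18 h it ranged from 0 to 53.1 CPM, with 0 counts in 4 of 9 embryos. Its counts there were 0 to 16, and in 1 embryo of that window 1 count of Nv.T1.2339.2 amounted to 17.7 CPM. The 12–18 h values therefore rest on few counts, and a 0 there does not show absence.

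The largest fitted rise, 5.64 ± 1.40 (SE, edgeR adjusted p = 0.049) in Nv.T1.3260.1, singled out after its values were seen, was carried by the 3 embryos that stood apart. It had 243, 496 and 1611 CPM in embryos 39, 43 and 45 and at most 16.5 CPM in the other 6 at 24–30 h, against 0 to 17.0 CPM at 18–24 h. Without the 3 embryos its counts were too low to be tested. It was called in 3 of the 17 fits that left out 1 embryo, and at 30–36 h it ranged from 10.4 to 1946 CPM.

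The 60 models that fell had a median log2 fold change of -1.96, and their falls ranged from 1.02 to 7.84 log2 units in size. The fall was at least 2 log2 units in 29 and at least 3 in 13. Of the 60, 30 averaged 100 CPM or more at 18–24 h. In 11 the CPM ranges did not overlap, against 17 of all models tested (0.125%) that were lower without overlap. Of the 60, 52 were still called without embryos 39, 43 and 45 and 42 of the 59 tested without embryo 32.

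Nv.T1.47144.1 fell most among models called in every fit and without overlap. It had 0 CPM in the lowest, 3.72 in the median and 16.3 in the highest 24–30 h embryo, and 44.9, 104 and 214 CPM at 18–24 h. At 24–30 h 2 embryos had no count of it, and the highest was embryo 45, the last of the window. It averaged 4.88 ± 5.51 CPM (SD, n = 9) at 24–30 h and 112 ± 68.3 CPM (SD, n = 8) at 18–24 h. The log2 fold change in edgeR was -4.66 ± 0.57 (SE, adjusted p = 0.00067). It had averaged 35.6 CPM at 12–18 h and 0.996 CPM at 6–12 h, and it averaged 16.6 CPM at 30–36 h, so 18–24 h was its highest window up to 36 h.

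Nv.T1.97.6 had 1.89 CPM in the lowest, 16.2 in the median and 71.9 in the highest 24–30 h embryo, against 183, 387 and 1122 CPM at 18–24 h. The windows did not overlap, and embryos 40 and 41 were lowest. Means were 27.5 ± 25.9 CPM at 24–30 h (SD, n = 9) and 466 ± 306 CPM at 18–24 h (SD, n = 8), and the log2 difference was -4.10 ± 0.58 (SE, edgeR adjusted p = 0.0016). The model had averaged 603 CPM at 12–18 h, above its 18–24 h mean, with embryos there from 11.6 to 1448 CPM and a median of 184. At 30–36 h it averaged 102 CPM and at 36–42 h 282 CPM.

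Stem 97 is described because Nv.T1.97.6 belongs to it. Its 3 tested models, of 4 deposited, were called lower, where 0.442% of all models tested were. Beside Nv.T1.97.6 these were Nv.T1.97.4 and Nv.T1.97.7, which are named because they share its stem and were singled out after their values were seen. Nv.T1.97.4 had 1.13, 3.70 and 53.9 CPM in the lowest, median and highest embryo at 24–30 h, and 28.0, 67.7 and 143 CPM at 18–24 h. Nv.T1.97.7 had 4.93, 10.7 and 129 CPM at 24–30 h, and 61.6, 131 and 306 CPM at 18–24 h. In both, embryo 45 held the highest value of the later window, above some 18–24 h embryos. Models of 1 stem can share reads, so these falls may not be separate.

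Both large stems held called models in both directions. The largest, with 3153 deposited models, had 3 rising and 9 falling models among 882 tested (1.36%), and the next largest, to which Nv.T1.12653.1400 belongs, with 539 deposited, had 6 rising and 2 falling among 392 tested (2.04%), against 1.02% of all models tested. With counts summed over stems, 109 of 11336 stems were called (0.962%), 68 higher (0.6%) and 41 lower (0.362%). There were 2 sets of rising models within 0.5 log2 units of each other in every embryo (with 5 CPM added), which leaves 136 models when each set is counted once.

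**Figure D3:**
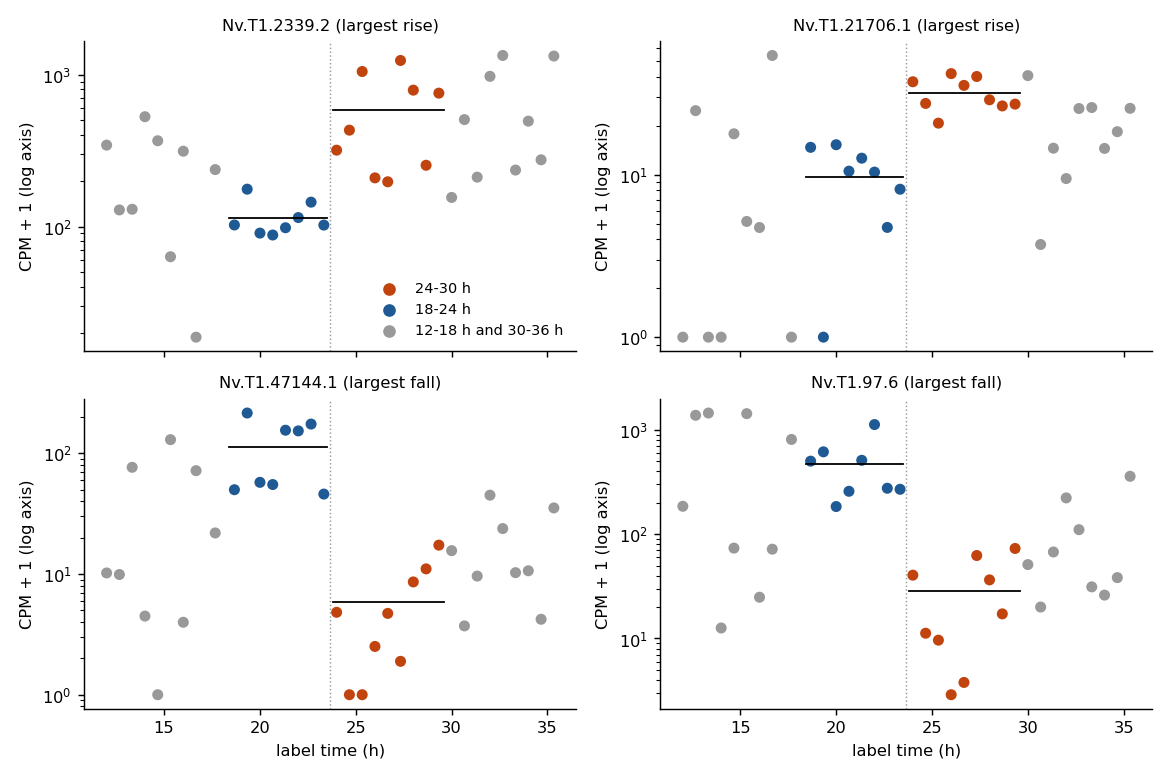
CPM + 1 (log axis) of the 2 models with the largest rise and the 2 with the largest fall among models called in every fit with at least 10 CPM and no overlap between the windows, in each embryo from 12 to 36 h of label time; 24–30 h embryos are orange, 18–24 h embryos blue and the neighbouring windows grey, with black lines at the window means. By that choice the orange and blue points do not overlap, while the grey points spread over both.

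A part of the models had small fitted changes. The rule for these takes the fitted value alone, and no test of equal level was run. By the rule for steady models, 2505 of the 13590 models tested were not called and stayed under 0.25 log2 units with all 17 embryos and in each fit that left out 1 embryo. The most abundant was Nv.T1.12653.1400, with 2641 ± 598 CPM at 24–30 h (SD, n = 9) and 2652 ± 623 CPM at 18–24 h (SD, n = 8), a log2 fold change of 0.03 ± 0.19 (SE). The next was Nv.T1.7406.1, with 2641 ± 723 CPM at 24–30 h and 2424 ± 361 CPM at 18–24 h and a log2 fold change of 0.15 ± 0.19 (SE). The sizes were 0.34 in Nv.T1.12653.1400 and 0.50 in Nv.T1.7406.1 with spike-in scaling, which moved the median of all models by 0.32, and Nv.T1.7406.1 was at 0.30 without embryos 39, 43 and 45. Nv.T1.7406.1 had been lower before, at 1117 CPM at 12–18 h and 304 CPM at 6–12 h.

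Embryo 32 alone set the largest fitted fall. Nv.T1.71029.1 had 4.90 CPM in the lowest, 11.2 in the median and 23.0 in the highest 24–30 h embryo. At 18–24 h it had 22834 CPM in embryo 32, 99.7% of the summed CPM of that window, and 2.59 to 14.6 CPM in the other 7. Its log2 fold change was -7.84 ± 1.79 (SE, edgeR adjusted p = 0.037) with embryo 32 and 0.56 (adjusted p = 0.50) without it. Nv.T1.71029.2, of the same stem, had 3.27, 56.2 and 72.0 CPM at 24–30 h and 10027 CPM in embryo 32, 98.0% of its window. Embryo 32 also had 39.1% of its counts assigned to no feature, against 8.03 to 10.8% in the other 7 embryos at 18–24 h. Among the 121 embryos of the series with at least 50000 gene counts, embryos 7, 32, 96 and 58 had the highest such shares, 43.1, 39.1, 36.8 and 32.1%, and no other exceeded 12.9%. Those 4 held Nv.T1.71029.1 at 60323, 22834, 42632 and 9639 CPM, and the highest of the other 117 was 187 CPM.

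Across the whole course to 48 h, the rising models had a median level of 12.7 to 15.2 CPM in the windows up to 18 h and of 34.6 to 50.2 CPM in those from 30 h on. The windows at 18–24 h and 24–30 h chose the models, so only the other windows are independent of the choice. The median of their mean CPM was 14.8 at 0–6 h, 15.2 at 6–12 h, 12.7 at 12–18 h, 11.4 at 18–24 h, 46.0 at 24–30 h, 34.6 at 30–36 h, 39.4 at 36–42 h and 50.2 at 42–48 h. In 65 of 78 models the mean at 30–36 h lay on the 24–30 h side of the midpoint of the 2 windows on the log2 scale, and in 73 at 42–48 h. The highest window was 42–48 h in 26 models, 24–30 h in 19, which the choice of models favours, and 36–42 h in 15.

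The falling models had medians of 21.9 to 58.7 CPM in the windows up to 18 h and of 35.3 to 38.2 CPM in those from 30 h on. Over all windows their median was 21.9 CPM at 0–6 h, 26.2 at 6–12 h, 58.7 at 12–18 h, 96.6 at 18–24 h, 15.8 at 24–30 h, 35.9 at 30–36 h, 38.2 at 36–42 h and 35.3 at 42–48 h. The window with the highest mean was 12–18 h in 18 of the 60. In 38 of 60 the mean at 30–36 h lay on the 24–30 h side of the midpoint, and in 42 at 42–48 h. The mean was highest at 18–24 h in 28 and lowest at 24–30 h in 25, both of which the choice of models favours.

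**Figure D4:**
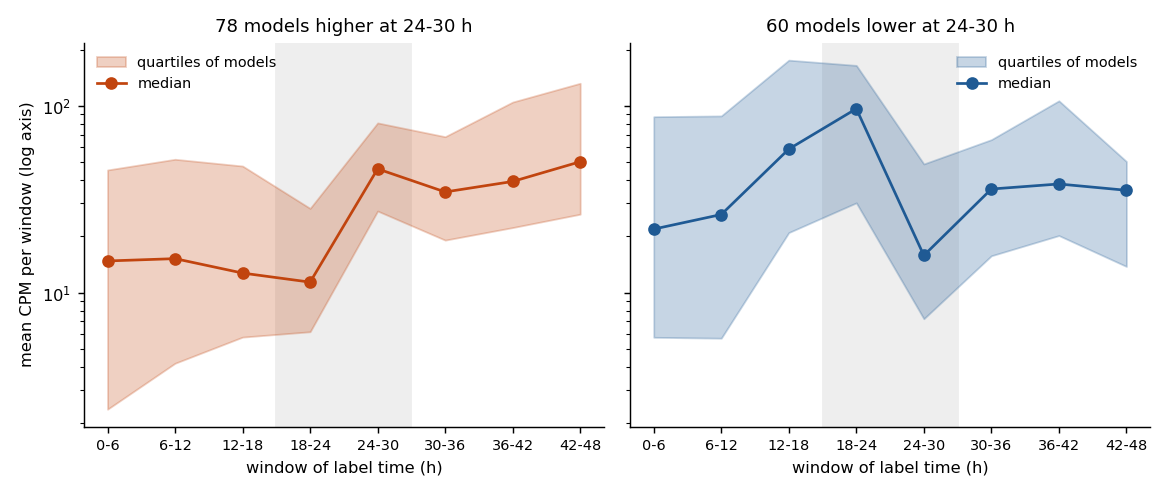
Mean CPM per window (log axis) of the 78 models higher at 24–30 h (left, orange) and the 60 lower (right, blue) over 8 windows of label time from 0 to 48 h: line and points give the median over models, shading the quartiles. The grey band marks the 2 windows that chose the models. Outside the band the left median lies at 12.7 to 15.2 CPM before it and 34.6 to 50.2 CPM after it, and the right one at 21.9 to 58.7 CPM before it and 35.3 to 38.2 CPM after it.

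Most of the rising and falling models that could be tested in embryos of neither window had the same direction there. Between 30–36 h and 12–18 h embryos, 2569 of 10249 models were called (25.1%), 1509 higher (14.7%) and 1060 lower (10.3%). With spike-in scaling 2053 were higher and 110 lower there, 94.9% higher against 58.7%, with a median over all models of 0.69 log2 units, so the background by direction depends on the scaling. Of the 78 rising models 51 were tested there: 44 had the same sign, 26 were called higher and 4 called lower, and the median log2 fold change was 1.25, against -0.01 over all models tested. Of the 60 falling models 45 were tested there: 36 had the same sign, 12 were called lower and 2 called higher, with a median of -0.90. Models had to pass the filter on low counts in those embryos, so these counts leave out the models at low level there. The share of all models tested with the same sign was not counted. The rising and falling models were not recounted there with spike-in scaling.

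The slope on label time over 18–30 h was called in 42 of 13590 models (0.309%), 37 up (0.272%) and 5 down (0.0368%), at an adjusted p under 0.05 and at least 1 log2 unit per 6 h. Of the 42, 18 were also called between the windows. The count rested on single embryos and on scaling: it was 6 without embryo 31, 12 without embryo 30, 21 without embryo 32, 21 without embryo 40, 23 without embryo 42, 27 without embryo 29 and 68 without embryo 44. It was 1 with spike-in counts as library size and 235 without embryos 39, 43 and 45.

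A step at 24 h beyond a straight line of label time was called in 44 models (0.324%), 39 lower (0.287%) and 5 higher (0.0368%). The 39 models had slopes opposite in sign to the step, which choosing them by the step favours. All had a positive slope beside the step, with a median of 2.50 log2 units per 6 h against a median step of -5.26, and 35 of the 39 had a positive slope in each window on its own. The 5 models with a higher step had negative slopes in both windows. Nv.T1.47144.1 was among the 39, with a step of -6.49 ± 1.09 (SE, edgeR adjusted p = 0.017). A downward step and an upward slope are estimated together from 17 embryos, so their signs are linked in the fit. The slopes inside the windows come from the same embryos and are not separate from it. The share of all models tested with such slopes was not counted. Without embryos 39, 43 and 45 there were 54 lower steps, 31 of the 39 among them, and without embryo 32 31, with 30 of the 39 among them. The count in both directions was 7 without embryo 38, 19 without embryo 40, 19 without embryo 29, 23 without embryo 37, 24 without embryo 34, 27 without embryo 41 and 67 without embryo 30.

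Inside a window no order by age was detectable at this number of embryos. edgeR's quasi-likelihood test called 0 of 14502 models on label time within 24–30 h and 0 of 14996 within 18–24 h, with 865 and 1081 models at an unadjusted p under 0.05. Leaving out 1 embryo gave up to 3 models within 24–30 h (3 without embryo 43 and 2 without embryo 41) and 0 within 18–24 h. No other tool was run on these slopes.

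The step between 18–24 h and 24–30 h embryos differed from the step before it. In the fit over 4 windows, 354 of 14474 models (2.45%) differed between the step into 24–30 h and the step into 18–24 h, 126 with a higher (0.871%) and 228 with a lower later step (1.58%). With spike-in scaling 107 did, 12 higher and 95 lower, which is 11.2% higher against 35.6%. The number was 440, 140 higher and 300 lower, without embryos 27, 28, 32 and 54. Some 12–18 h embryos were shallow, with 1 count at 17.7 CPM in 1 of them, and the part of depth was not tested. Between the step into 30–36 h and the step into 24–30 h 15 models differed (0.104%), 4 higher (0.0276%) and 11 lower (0.076%), and with spike-in scaling 20, 3 higher and 17 lower. The steps share the middle windows, so their differences are not independent of the calls above.

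Gene counts per spike-in count, which track captured polyadenylated RNA per embryo, did not differ beyond the spread of all 17 embryos. The ratio was 3.24 in the lowest, 6.42 in the median and 8.50 in the highest 24–30 h embryo, and 3.53, 4.82 and 6.74 at 18–24 h. Embryos 39, 43 and 45 had 3.45, 3.29 and 3.24, and the other 6 of their window had 6.17 to 8.50. The mean log2 ratio was 2.52 ± 0.61 at 24–30 h (SD, n = 9) and 2.26 ± 0.28 at 18–24 h (SD, n = 8), a difference of 0.26 ± 0.23 (SE, exact two-sided permutation p = 0.28, adjusted 0.40 over 7 library measures). Without the 3 embryos the difference was 0.66, given with no test because the embryos left out are the lowest of the later window in this ratio. The amount of spike-in RNA added to each embryo was not stated in the labels.

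The number of models detected at equal depth did not differ beyond the spread of the embryos. With each embryo thinned to 100000 gene counts, 13952 ± 288 models were detected at 24–30 h (SD, n = 9) and 13880 ± 214 at 18–24 h (SD, n = 8), a difference of 72.0 (exact permutation adjusted p = 0.57). The largest stem took 14.6 ± 1.68% of gene counts at 24–30 h and 12.8 ± 0.72% at 18–24 h, a difference of 1.76 points (exact permutation p = 0.018, adjusted 0.090). The next largest took 10.2 ± 1.18% at 24–30 h and 9.04 ± 0.76% at 18–24 h, a difference of 1.18 points (exact permutation p = 0.026, adjusted 0.090). Neither passed the adjustment. The 100 most abundant models held 18.7% of gene counts at 24–30 h and 17.5% at 18–24 h (exact permutation adjusted p = 0.38).

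**Figure D5:**
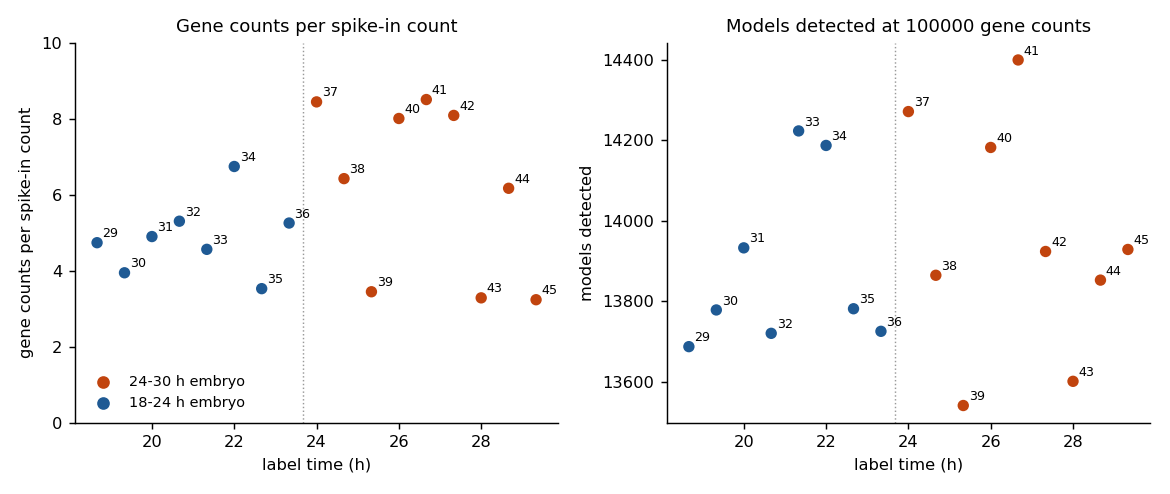
Gene counts per spike-in count (left) and models detected after thinning to 100000 gene counts (right; the axis does not start at 0) against label time in hours; each point is 1 embryo with its number, 24–30 h orange and 18–24 h blue, and the dotted line parts the windows. Embryos 39, 43 and 45 have 3.24 to 3.45 gene counts per spike-in count, below the other 24–30 h embryos.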

How the data were processed

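CEL-Seq libraries of 17 single embryos were analysed. The authors deposited raw counts for each embryo, as whole numbers, of 40499 transcript models and 92 ERCC spike-ins, with 5 entries of unassigned reads that were kept out of library sizes and tests. The submitters' processing notes name HTSeq 0.5.4p3, Bowtie2 2.1.0 and CASAVA 1.8. Genome build, annotation: not given in the sources used here. Counts assigned to no feature made up 7.68 to 10.0% of counts at 24–30 h and 8.03 to 39.1% at 18–24 h. The files hold no molecule counts, so amplification copies cannot be separated. Read strand was not stated, so overlapping or near-identical models are uncertain.

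Models were tested with edgeR 4.0.16 in R 4.3.3 (quasi-likelihood F test, TMM scaling, filterByExpr, Benjamini-Hochberg adjustment over all models tested, 24–30 h minus 18–24 h); CPM is per 1e+06 gene counts without TMM. Standard errors are the absolute log2 fold change over the square root of F. Alternatives were DESeq2 1.42.0, voom in limma 3.58.1, other scalings and filters, and leaving out each embryo. Library measures used exact permutation tests over 24310 assignments. In data simulated for this comparison on 13590 models, 28% of models changed 2-fold and 89% of those changed 4-fold passed an adjusted p of 0.05, with 4 unchanged models. The simulation did not apply the fold threshold of the calls and held no embryos that stood apart, so these are not rates for the calls above. Among 64 pairs of embryos within a window, chi-square over degrees of freedom was at least 7.64, so none was closer than sampling noise allows.

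The naming rule took, among models called in all fits with at least 10 CPM in the higher window and no overlap, the 2 with the largest rise (of 5) and the 2 with the largest fall (of 6). It also took the 2 most abundant steady models and the 2 models with the largest share of the 18–24 h CPM in embryo 32. No identifier of the 40499 matched the 38762 genes of the name table (assembly jaNemVect1.1). The embryos and comparisons were chosen with earlier results of these data known.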

Additional observations from a re-analysis of the deposited data

Results flagged for a closer look

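In 30 sets of 8 or 9 embryos, a test for a single embryo far from the rest singled out 5, where chance gives about 1 in 20. Embryo 32 accounted for 4: 39.1% of its counts were assigned to no feature (8.03 to 10.8% in the other 18–24 h embryos), 45.9% were unaligned (34.4 to 39.8%), Nv.T1.71029.1 was at 22834 CPM (2.59 to 14.6) and Nv.T1.71029.2 at 10027 CPM (15.7 to 65.6). These 2 models were named for their share in embryo 32, so their flags followed from that choice and the chance rate does not hold for them. The other was Nv.T1.97.6 in embryo 34, at 1122 CPM against 183 to 614 in the other 18–24 h embryos. The call for that model held without embryo 34, which the rule that named it required.

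The steps between windows differed by a test of the difference itself, in 354 models between the step into 24–30 h and the step into 18–24 h, and in 15 between the step into 30–36 h and the step into 24–30 h.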

How the results depend on the processing

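Calls between 24–30 h and 18–24 h embryos numbered 138, and 109 to 152 under 7 other scalings, filters or subsets. Without a fold threshold there were 166. They numbered 405 with DESeq2, 218 with voom, 224 with no filter, and 434, 466, 423 and 431 without embryos 39, 43 and 45 alone or with embryo 36, 32 or 35 as well (added after the data were seen). Slope calls were 1 with spike-in scaling and 235 without the 3 embryos, and step differences 107 with spike-in scaling. The cause was not tested.

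Leaving out 1 embryo gave 66 to 224 calls between windows, 6 to 68 on the slope, 7 to 67 on the step, 0 to 3 within 24–30 h and 0 to 0 within 18–24 h. The difference was 0.19 to 0.36 for the log2 spike-in ratio, 16.1 to 123 for models detected, -4.30 to 0.14 points for counts without a feature (0.14 without embryo 32), -2.62 to -0.98 for unaligned counts, 0.76 to 1.65 for the top 100, 1.54 to 2.09 for the share of the largest stem (2.09 without embryo 37, exact permutation adjusted p = 0.030) and 0.89 to 1.41 for that of the next largest (1.41 without embryo 36, adjusted p = 0.040 by the same exact test). The log2 spike-in ratio difference was 0.66 without embryos 39, 43 and 45, which are low in that ratio, so no test is given.

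Models detected turned to -3.19 at 50000 gene counts and to -567 without thinning, and the correlation of component 1 with time to -0.058 with spike-in scaling. Leaving out 1 embryo gave log2 fold changes of -8.04 to 0.56 in Nv.T1.71029.1 and -5.15 to 0.53 in Nv.T1.71029.2. Nv.T1.71029.1 turned to 0.54 with DESeq2 and 0.56 without embryo 32, and Nv.T1.71029.2 to 0.48 and 0.53. The 4 models named for their rise or fall kept their direction and call in all 26 alternatives. The rule that named them required the call in the 17 fits that left out 1 embryo, so those outcomes were fixed by the choice. Depth limits a model at 0 to under 1.13 to 7.60 CPM. No paired analysis was possible because the replicate numbers only follow the order of the embryos and each time holds 1 embryo.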
